A study of Homo sapiens with 8 samples.

Results

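Kinetochore and spindle checkpoint genes encode the machine that ties each chromosome to spindle microtubules and the signal that delays anaphase until every chromosome is attached. The set described here holds 44 protein-coding genes in 10 complexes, chosen by name from the known composition of the centromere, the kinetochore and the checkpoint, out of 19974 protein-coding genes on chromosomes 1 to 22 and X. The rule names genes by function and sets no threshold on a measured value. Gene coordinates came from RefSeq on GRCh38.p14. A gene-end peak is an ATAC-seq peak that overlaps, by at least 1 bp, a window of 1 kb either side of either annotated end of a gene, and the leading peak is the one of them with the highest pileup (the height of stacked fragments).

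The data are 8 deposited peak lists of chromatin accessibility in mitotic hTERT RPE-1 cells, a telomerase-immortalised human retinal pigment epithelial line. ATAC-seq marks accessible DNA by the insertion of adapters by the transposase Tn5. All 8 libraries came from cells of the genotype Plk1-/- EGFP-Plk1as, in which the only form of the mitotic kinase Plk1 is an EGFP-tagged analog-sensitive one. All cells were first held for 16 h in 5 µM STLC, an inhibitor of the spindle motor kinesin-5 that arrests cells in prometaphase, and were collected by shake-off. They then received, still in STLC, 0.5% DMSO (4 libraries) or 10 µM 3MB-PP1, which inhibits the analog-sensitive kinase (4 libraries), for 2 h. Every sample was above 95% mitotic, and 50000 cells went into each reaction. The question is whether mitotic chromosomes differ in accessibility once Plk1 is inhibited. Cells outside mitosis and cells without STLC are in neither group, and the labels do not say whether replicates were separate cultures, so p-values measure the spread between these libraries, which may be technical.

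At the centromere, nucleosomes that carry the histone variant CENP-A are bound by the constitutive centromere-associated network. That network recruits the MIS12, KNL1 and NDC80 complexes, and NDC80 with the SKA complex holds microtubules. Unattached kinetochores recruit Bub1, BubR1, Bub3, Mad1 and Mad2, which keep the anaphase-promoting complex inactive. The chromosomal passenger complex and the shugoshins correct faulty attachments and protect cohesion. Many of these genes are transcribed mainly late in the cell cycle, through promoters with CHR elements and CCAAT boxes.

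The lists held 150577, 158250, 197901 and 199042 peaks in DMSO replicates 1 to 4 and 213626, 203668, 252752 and 170682 in 3MB-PP1 replicates 1 to 4. Read depth is unknown. Chromosome X held 0.868% to 0.933% of peaks in the odd-numbered replicates of both treatments and 0.595% to 0.694% in the even-numbered ones, a split that does not follow treatment, so values within odd and even numbers are given where a result rests on them. Over all genes tested, the median length of the leading peak in a list fell by 0.244 on the log2 scale with 3MB-PP1. Gene-end calls at marker genes did not separate cell types. Of 5 epithelial markers, KRT8, KRT18 and EPCAM had a gene-end peak in 8 of 8 lists, CDH1 in 6 and KRT7 in 1, and KRT8 and KRT18 shared 1 leading peak in 7 of the lists. Of 7 markers of differentiated pigment epithelium, PMEL, MITF and OTX2 had one in 8 lists, RLBP1 in 5, BEST1 and TYR in 2 each and RPE65 in 0. Among blood and liver markers, CD3E had one in 8 lists and PTPRC and ALB in 0.

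Every one of the 44 genes had a gene-end peak in all 8 lists. Of all protein-coding genes, 60.0% had one in all 8 lists and 9.13% had one in none. Calls of 4 of 4 lists in one treatment and 0 of 4 in the other were made at 0 of the 44 genes, against 0.0551% of all genes for DMSO and 0.120% for 3MB-PP1. These promoters were therefore called accessible in mitotic cells with and without Plk1 activity. With only peaks of −log10 q of at least 5 (a false discovery rate of the peak caller), 27 of 44 (61.4%) were called in all 8 lists, against 28.6% of all genes. At that threshold 43, 42, 43 and 38 genes were called in the DMSO lists and 39, 34, 41 and 30 in the 3MB-PP1 lists. Replicate 4 was lowest in both treatments, and the groups overlapped. The share of all protein-coding genes at that threshold moved alongside, 37.7% to 51.0% in DMSO and 30.0% to 43.1% with 3MB-PP1.

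The peaks lay at the start sites. RefSeq promoters, which give the start site and strand, were matched for 36 of the 44 genes, and in 285 of 288 pairs of gene and list the leading peak covered the start. The exception was CENPT, a member of the constitutive centromere-associated network whose leading peak missed the start in 3 lists. All 36 genes are longer than 4 kb, and all had a peak at the start-site end in all 8 lists, against 63.7% of genes over that length. At the other end 0 of the 36 had a peak in all 8 lists (5.04% of all) and 24 (66.7%) had one in 0 of 8 lists (55.3% of all). Around the start, 250 bp upstream was covered in 95.8% of pairs in DMSO and 87.5% with 3MB-PP1, and 500 bp upstream in 72.2% and 50.0%. Downstream, 500 bp was covered in 62.5% and 51.4%. Over all genes with a gene-end peak in 8 lists, 500 bp upstream was covered in 57.8% and 47.4%, and 1000 bp downstream in 29.8% and 23.7%, where the kinetochore genes stood at 7.64% in both treatments. At 1000 bp upstream the kinetochore genes also stood at 7.64% in both treatments, against 19.1% (DMSO) and 14.1% (3MB-PP1) over all genes. Coverage of the kinetochore genes was thus high near the start and below that of all genes 1000 bp away on both sides.

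**Figure D1:**
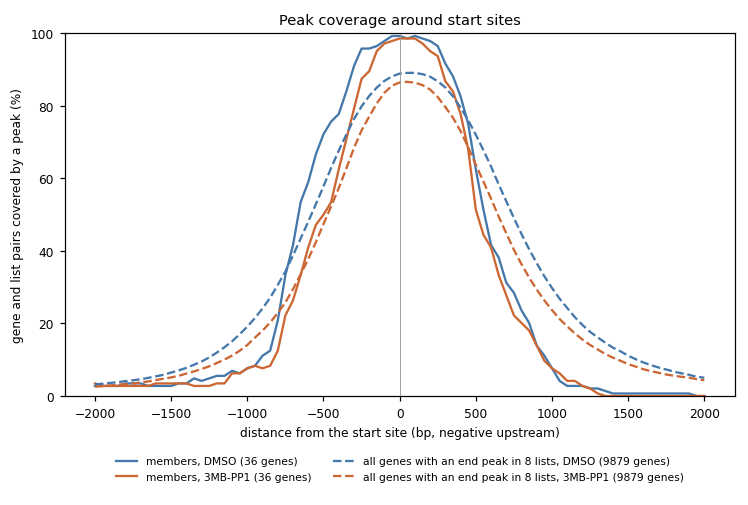
Share of gene and list pairs covered by a peak (%) against distance from the start site (bp, negative upstream), for 36 kinetochore and checkpoint genes (solid) and 9879 genes with a start site and a gene-end peak in 8 lists (dashed), by treatment. At the start itself the 36 genes reach 99.3% in DMSO and 98.6% with 3MB-PP1, and at 500 bp upstream the DMSO line stands at 72.2% and the 3MB-PP1 line at 50.0%.

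Promoter sequence was examined in windows of 250 bases before to 50 after the start, with both strands searched. The CHR element, at which repressor and activator complexes of the cell cycle bind, was taken as TTTGAA or TTCGAA. It was present in 21 of the 36 promoters (58.3%), against 13.5% of 15808 protein-coding promoters. The CCAAT box, the site of NF-Y, was present in 24 (66.7%) against 36.4%, and 15 (41.7%) held both, against 5.65%. A CDE next to a CHR, searched as GCGG, 4 bases of any kind and TTTGAA, and so a subset of the CHR matches, was found in 3 (8.33%) against 0.133%. E2F sites (TTTGGCGC, TTTCGCGC, TTTCCCGC or TTTGCCGC) were found in 4 (11.1%) against 4.45%, the GC box GGGCGG in 24 (66.7%) against 58.3%, and TATAAA in 0 against 9.75%. The median GC content was 61.7% beside 62.7% for all promoters. These are shares of letters in fixed windows, and a match is not a measured binding site.

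**Figure D2:**
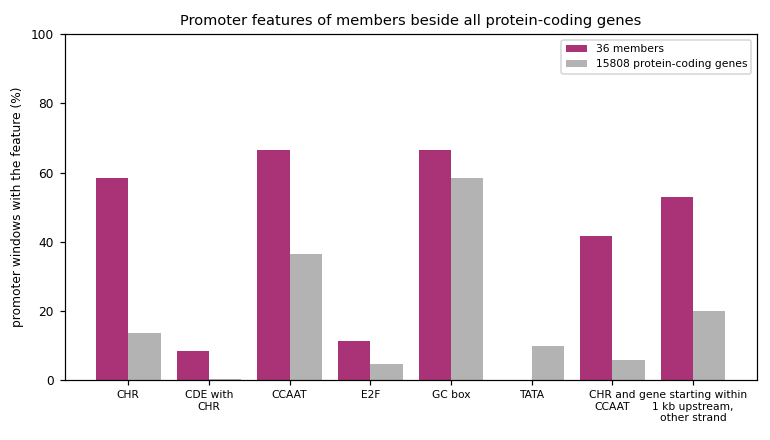
Share of promoter windows (%) that hold each motif, and share of genes with another gene starting within 1 kb upstream on the other strand, for 36 kinetochore and checkpoint genes and 15808 protein-coding genes. CHR stands at 58.3% against 13.5%, CCAAT at 66.7% against 36.4%, and the upstream divergent gene at 52.8% against 19.8%.

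The following promoters were picked by motif and by rank of the leading peak, and each window was covered in 8 of 8 lists. They are the 3 with a CDE next to a CHR (CENPF, SKA1 and NUF2) and the 5 of the others with both CHR and CCAAT whose peaks ranked highest. Each is 300 bases of GRCh38.p14, 5′ to 3′ on the gene's strand, from RefSeq, and capitals mark CHR elements, CCAAT boxes on either strand and the CDE.
CENPF: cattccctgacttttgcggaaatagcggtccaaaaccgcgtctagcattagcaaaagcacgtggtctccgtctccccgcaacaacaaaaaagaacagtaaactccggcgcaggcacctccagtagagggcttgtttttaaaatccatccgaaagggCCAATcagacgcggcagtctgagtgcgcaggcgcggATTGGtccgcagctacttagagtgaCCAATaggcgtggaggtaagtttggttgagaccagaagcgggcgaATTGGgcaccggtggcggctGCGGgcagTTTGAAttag
SKA1: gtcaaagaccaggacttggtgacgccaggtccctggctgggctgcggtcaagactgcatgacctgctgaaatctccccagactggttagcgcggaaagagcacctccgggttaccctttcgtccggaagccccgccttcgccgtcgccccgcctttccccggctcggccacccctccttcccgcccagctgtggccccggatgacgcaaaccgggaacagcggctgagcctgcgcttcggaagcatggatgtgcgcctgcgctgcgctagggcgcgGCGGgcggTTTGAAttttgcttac
NUF2: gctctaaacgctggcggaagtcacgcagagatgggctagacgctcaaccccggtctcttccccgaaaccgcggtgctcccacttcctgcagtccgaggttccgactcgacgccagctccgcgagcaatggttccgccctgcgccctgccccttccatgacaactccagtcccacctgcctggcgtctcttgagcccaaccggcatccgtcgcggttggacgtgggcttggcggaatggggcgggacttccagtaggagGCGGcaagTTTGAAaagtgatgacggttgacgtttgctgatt
SGO1: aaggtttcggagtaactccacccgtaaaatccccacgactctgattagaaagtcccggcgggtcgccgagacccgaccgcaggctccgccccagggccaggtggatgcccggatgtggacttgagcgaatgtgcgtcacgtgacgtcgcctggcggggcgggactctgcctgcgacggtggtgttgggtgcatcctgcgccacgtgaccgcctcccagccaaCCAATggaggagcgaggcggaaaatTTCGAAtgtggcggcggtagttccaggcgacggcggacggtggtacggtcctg
CENPN: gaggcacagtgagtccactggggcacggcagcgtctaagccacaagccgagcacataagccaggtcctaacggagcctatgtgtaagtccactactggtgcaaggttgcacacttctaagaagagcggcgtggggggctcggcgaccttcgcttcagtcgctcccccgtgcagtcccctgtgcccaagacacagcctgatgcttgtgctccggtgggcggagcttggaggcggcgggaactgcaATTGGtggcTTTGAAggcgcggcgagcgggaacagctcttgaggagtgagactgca
BUB1: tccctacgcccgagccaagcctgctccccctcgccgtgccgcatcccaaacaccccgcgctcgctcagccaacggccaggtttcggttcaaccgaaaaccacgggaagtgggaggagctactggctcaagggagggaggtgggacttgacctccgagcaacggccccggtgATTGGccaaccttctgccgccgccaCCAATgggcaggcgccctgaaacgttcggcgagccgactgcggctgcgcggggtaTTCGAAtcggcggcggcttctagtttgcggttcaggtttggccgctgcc
OIP5: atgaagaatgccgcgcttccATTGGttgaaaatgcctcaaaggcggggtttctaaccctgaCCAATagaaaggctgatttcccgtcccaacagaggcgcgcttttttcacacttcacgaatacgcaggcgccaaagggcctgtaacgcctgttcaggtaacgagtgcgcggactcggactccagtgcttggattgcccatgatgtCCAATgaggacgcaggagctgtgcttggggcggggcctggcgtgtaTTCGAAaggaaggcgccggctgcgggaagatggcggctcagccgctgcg
CENPC: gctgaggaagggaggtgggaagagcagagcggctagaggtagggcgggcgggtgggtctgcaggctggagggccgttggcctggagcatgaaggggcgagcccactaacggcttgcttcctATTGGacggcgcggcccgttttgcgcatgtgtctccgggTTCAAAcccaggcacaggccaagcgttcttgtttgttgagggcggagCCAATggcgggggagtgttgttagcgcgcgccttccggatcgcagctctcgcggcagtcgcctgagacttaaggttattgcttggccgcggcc
The windows lie at chr1:214602945-214603244 on the plus strand (CENPF), chr18:50374796-50375095 plus (SKA1), chr1:163321704-163322003 plus (NUF2), chr3:20186157-20186456 minus (SGO1), chr16:81006964-81007263 plus (CENPN), chr2:110678014-110678313 minus (BUB1), chr15:41332542-41332841 minus (OIP5) and chr4:67545454-67545753 minus (CENPC). Counted with the first transcribed base as 1, the CHR began at 41 in CENPF, 35 in SKA1 and 17 in NUF2, each after a CDE, and at -3 in SGO1, 4 in CENPN, 2 in BUB1 and 2 in OIP5. In CENPC it lay at -90. CENPF, a corona protein, held 4 CCAAT boxes, at -94, -58, -33 and 13.

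A second feature of these promoters was divergence. Another gene began within 1 kb upstream on the other strand for 19 of the 36 genes (52.8%), against 19.8% of all genes with a RefSeq promoter. The partner was protein-coding in 12 cases and a long noncoding RNA in 7, and the starts were 34 to 560 bp apart with a median of 168 bp. Such pairs include NDC80 with METTL4 (52 bp), SKA2 with PRR11 (560 bp), OIP5 with NUSAP1 (290 bp), CENPO with PTRHD1 (34 bp) and MIS12 with DERL2 (196 bp). In 17 of the 19 pairs the leading peak covered both starts in all 8 lists, so that its length and height belong to the pair and cannot be split between the genes. It covered both starts in 3 lists for SPC25 and in 2 for INCENP.

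Peak height was compared as a rank, since the lists state no common scale for pileup. In each list the leading pileup of each gene was ranked among the 11982 protein-coding genes called at an end in all 8 lists and written as a percentile. The 44 genes spread over nearly the whole range, with a median of 54.1. Of them 23 (52.3%) lay above the 50th percentile (49.8% of all genes), 15 (34.1%) above the 75th (24.4%) and 7 (15.9%) below the 25th (24.8%). The motif classes gave medians of 59.7 for 21 promoters with a CHR and 46.0 for 15 without, with ranges of 17.4 to 93.6 and 18.7 to 98.9 that overlapped widely.

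**Figure D3:**
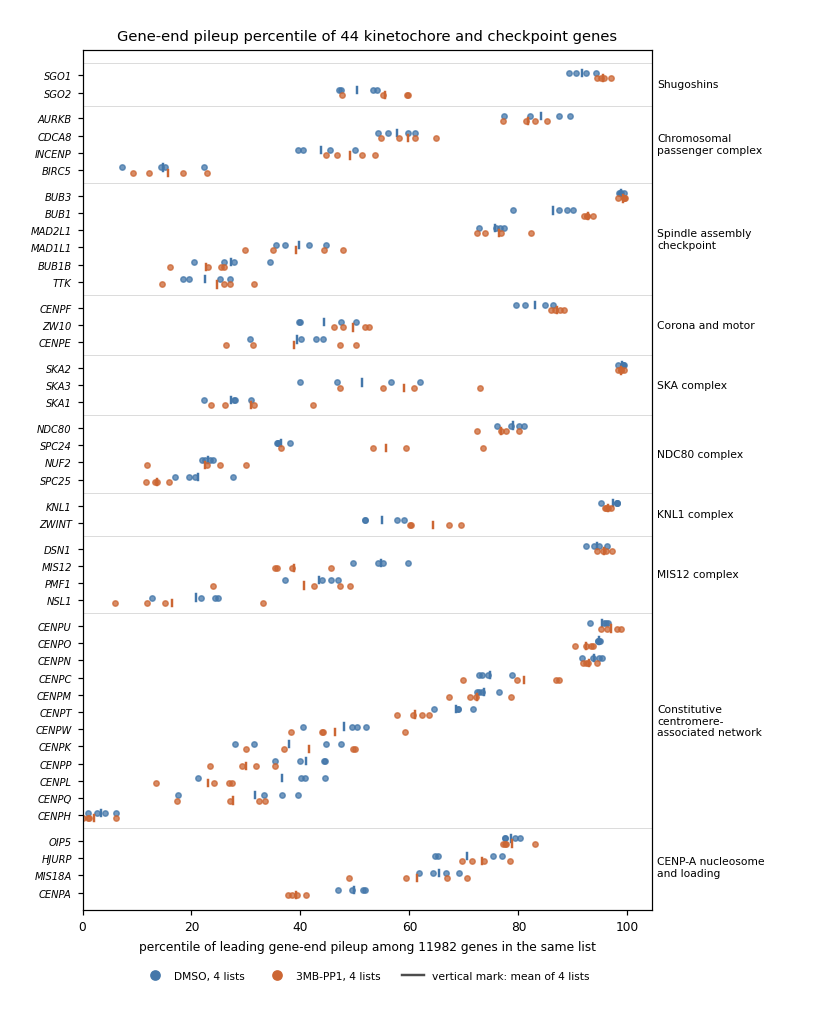
Percentile of the leading gene-end pileup among 11982 genes of the same list for the 44 genes, grouped by complex, with each list as a point and the mean of 4 lists as a vertical mark. BUB3, SKA2 and KNL1 sit above 95 in every list, CENPH sits at or below 6.2, and the CENPA lists separate by treatment.

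The highest ranks belonged to one gene each of the checkpoint, the SKA complex and the KNL1 complex. BUB3 (chromosome 10, 123154402 to 123170467) encodes the adaptor that brings Bub1 and BubR1 to kinetochores. Its percentiles were 99.5, 98.9, 98.6 and 98.5 in DMSO and 99.5, 98.4, 99.4 and 99.3 with 3MB-PP1. SKA2 (chromosome 17, 59109857 to 59155186), a subunit of the microtubule-binding SKA complex, stood at 98.3 to 99.3 in DMSO and 98.2 to 99.3 with 3MB-PP1. KNL1 (chromosome 15, 40594249 to 40664342), the scaffold on which Bub proteins gather, stood at 98.2, 98.1, 98.2 and 95.2 and at 96.5, 96.1, 96.0 and 96.9. Both treatments overlapped for all 3 genes.

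The lowest ranks were those of CENPH, BIRC5 and SPC25. CENPH (chromosome 5, 69189583 to 69210357), a subunit of the constitutive network, stood at 6.2, 2.6, 4.1 and 1.0 in DMSO and 6.2, 0.1, 1.2 and 1.0 with 3MB-PP1. Its −log10 q was 1.06 to 3.39, so each call lay near the threshold of the lists, and only 30 bp were common to its 8 leading peaks. BIRC5 (chromosome 17, 78214253 to 78225635), which encodes survivin of the chromosomal passenger complex, ranged from 7.3 to 22.3 in DMSO and from 9.3 to 22.8 with 3MB-PP1. SPC25 (chromosome 2, 168861521 to 168890430), of the NDC80 complex, stood at 20.6, 17.0, 19.5 and 27.5 in DMSO and 13.7, 13.4, 15.9 and 11.7 with 3MB-PP1. All 4 of its 3MB-PP1 lists were below all 4 DMSO lists, but the difference of -7.48 points (SE 2.37) did not pass limma's adjusted test (adjusted p = 0.171).

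Subunits of one complex did not share a rank. Within NDC80, the microtubule-binding gene NDC80 averaged 77.9 over the 8 lists, SPC24 46.0, NUF2 22.7 and SPC25 17.4. Within MIS12, DSN1 averaged 95.1 and NSL1 18.7. In the constitutive network the 12 genes ran from 2.79 (CENPH) to 96.2 (CENPU) with a median of 56.0. The medians of the other complexes were 67.7 for CENP-A and its loading (4 genes), 44.4 for MIS12 (4), 78.3 for KNL1 (2), 34.4 for NDC80 (4), 55.2 for SKA (3), 47.0 for the corona and motor genes (3), 57.7 for the checkpoint (6), 52.6 for the chromosomal passenger complex (4) and 73.3 for the shugoshins (2). These levels are percentiles of peak height and not amounts of RNA or protein.

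Between treatments, 1 of the 44 genes, CENPA, changed rank past an adjusted p of 0.05 in limma's fit on treatment only. With the replicate number as a block, 0 of the 44 and 0 of all 11982 genes passed. CENPA (chromosome 2, 26786056 to 26794589) encodes the histone that marks the centromere. Its percentiles were 46.9, 51.8, 51.4 and 49.5 in DMSO (49.9 ± 2.25, SD, n = 4) and 39.3, 37.7, 38.4 and 41.0 with 3MB-PP1 (39.1 ± 1.42, SD, n = 4). Every 3MB-PP1 list was below every DMSO list. The difference was -10.8 points (SE 1.62), with an adjusted p of 0.0495 from limma over 11982 genes, of which 0.134% were called lower and 0.184% higher. It was -10.3 between odd-numbered and -11.3 between even-numbered replicates. The call sits on the threshold: with the replicate number as a block the adjusted p was 0.0745, and it rose to between 0.0637 and 0.146 when any one library was left out. The mean length of the CENPA peak was 1407 ± 185 bp (SD, n = 4) in DMSO and 1407 ± 190 bp (SD, n = 4) with 3MB-PP1.

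At an unadjusted p under 0.05, limma's rank test called 10 of 44 genes (22.7%), against 17.5% of all genes. In 6 genes (13.6%, against 6.58% of all) every 3MB-PP1 list ranked below every DMSO list: CENPA, CENPO, CENPP, CENPT, MIS12 and SPC25. In 3 genes (6.82%, against 4.34%) every 3MB-PP1 list ranked above: ZWINT, BUB1 and SGO1. The median difference over the 44 genes was -0.33 points, beside -0.23 over all genes. It was -0.65 between odd-numbered and 0.33 between even-numbered replicates and ran from -0.43 to 0.15 with a library left out (0.15 without 3MB-PP1 replicate 1, 0.019 without 3MB-PP1 replicate 4 and 0.049 without DMSO replicate 3), so it has no stable sign. The largest fall was that of MIS12 (chromosome 17, 5486374 to 5490811), a subunit of the complex that links centromere to outer kinetochore, at 59.8, 55.2, 49.6 and 54.3 in DMSO and 38.5, 35.4, 35.8 and 45.6 with 3MB-PP1. The difference was -15.9 (SE 2.95) and its adjusted p was 0.0656, which ran from 0.0549 to 0.176 over the alternatives. CENPP, another subunit of the constitutive network, differed by -11.1 (SE 3.08, limma adjusted p = 0.129). Its peak also covers the start of NOL8, 118 bp away.

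SPC24 (chromosome 19, 11145493 to 11155782), the NDC80 subunit that joins the complex to MIS12, went the other way with wide spread. Its percentiles were 35.9, 35.8, 38.2 and 35.7 in DMSO and 59.4, 53.2, 73.5 and 36.4 with 3MB-PP1. Replicate 4 of 3MB-PP1 was within the DMSO range and the other 3 lists were above it. The difference was 19.3 (SE 6.76, limma adjusted p = 0.204), and 29.5 between odd-numbered against 9.05 between even-numbered replicates. It was 13.2 without 3MB-PP1 replicate 3, and 0.62 (adjusted p = 0.912) when the window at gene ends was 2.5 kb in place of 1 kb. ZWINT (chromosome 10, 56357227 to 56361273), the partner of KNL1 that recruits the corona, ranked at 51.8 to 59.0 in DMSO and 60.0 to 69.5 with 3MB-PP1, a difference of 9.21 (SE 2.91, adjusted p = 0.17 in the same limma fit).

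Leading peaks of the 44 genes were 285 to 3224 bp long. In the median gene the mean length was 1289 bp in DMSO and 1101 bp with 3MB-PP1, against 1447 bp and 1221 bp over all genes tested, so the peaks of these genes were shorter than those of the median gene in both treatments. List by list the median of the 44 was 1344, 1276, 1344 and 1167 bp in DMSO and 1176, 1109, 1132 and 1085 bp with 3MB-PP1. The groups met only between DMSO replicate 4 and 3MB-PP1 replicate 1. Over all peaks of a list the median length was 409, 390, 408 and 355 bp in DMSO and 269, 297, 275 and 324 bp with 3MB-PP1. The shortest peak was 135, 125, 126 and 114 bp in DMSO and 91, 101, 90 and 109 bp with 3MB-PP1. The treatments overlapped in neither, so shorter peaks with 3MB-PP1 were a trait of whole lists and not of gene ends alone. The cause was not tested.

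**Figure D4:**
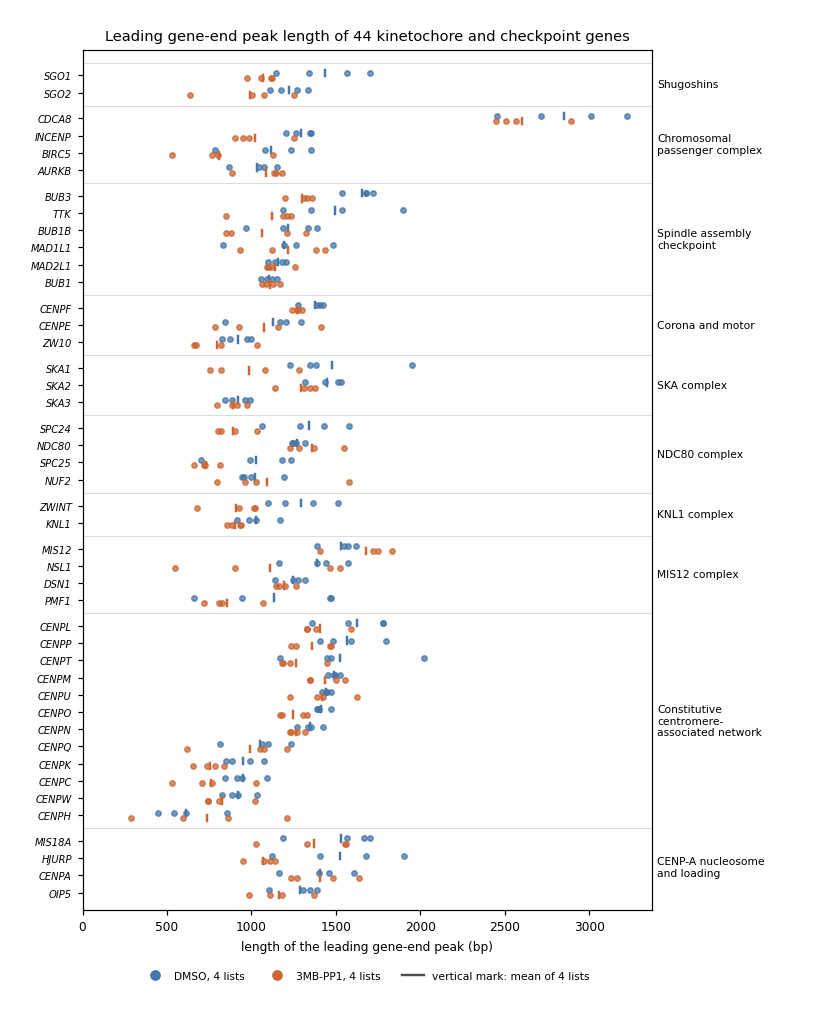
Length (bp) of the leading gene-end peak of the 44 genes in each of 8 lists, grouped by complex, with each list as a point and the mean of 4 lists as a vertical mark. CDCA8 lies apart at 2449 to 3224 bp. The treatments do not overlap in CENPK, CENPO, ZWINT, SPC24, BUB3 and SGO1, and the gap is widest in BUB3.

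The fitted difference in length was below 0 (3MB-PP1 shorter) in 36 of 44 genes (81.8%), against 87.8% of all genes. The median difference was -0.17 on the log2 scale (a ratio of 0.887), beside -0.19 over all genes. Centred on the median length of each list, the same medians were 0.07 and 0.05, so measured against the length of each list's median gene the typical difference lay slightly above 0 for both. Limma's test called 0 of 44 genes shorter (1.31% of all genes) and 0 longer (0.00835%) at an adjusted p of at most 0.05. At an unadjusted p under 0.05 it called 10 (22.7%, against 20.3%). All 4 lists of one treatment lay below all 4 of the other in 6 genes (13.6%, against 13.4%), always with 3MB-PP1 shorter: CENPK, CENPO, ZWINT, SPC24, BUB3 and SGO1.

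**Figure D5:**
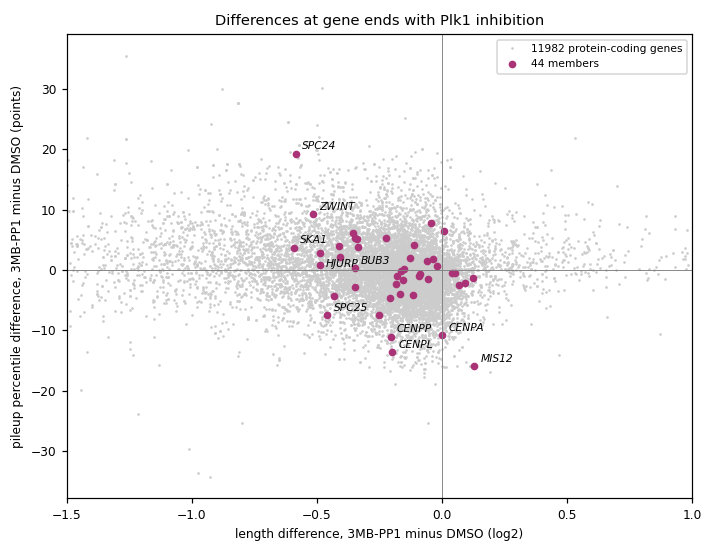
Difference in leading peak length (log2, 3MB-PP1 minus DMSO) against difference in pileup percentile (points) for 11982 protein-coding genes, with the 44 kinetochore and checkpoint genes marked, and 201 genes beyond the horizontal axis not shown. The marked genes lie within -0.59 and 0.13 in length, and SPC24 at 19.3 and MIS12 at -15.9 are their extremes in rank.

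The largest differences in length were in outer kinetochore genes. SKA1 (chromosome 18, 50375046 to 50394168), which binds microtubules within the SKA complex, had peaks of 1953, 1346, 1381 and 1228 bp in DMSO and 756, 821, 1285 and 1081 bp with 3MB-PP1. The difference was -0.59 (SE 0.21, limma adjusted p = 0.198), and the third 3MB-PP1 list overlapped the DMSO range. SPC24 had peaks of 1428, 1290, 1581 and 1061 bp and then 905, 800, 818 and 1033 bp, with no overlap, a difference of -0.58 (SE 0.14) and a limma adjusted p of 0.117. With a window of 2.5 kb the difference was -0.29 (adjusted p = 0.411). Within 1 kb its peaks were shorter while their rank was higher in 3 of 4 lists. ZWINT had peaks of 1364, 1101, 1511 and 1200 bp in DMSO and 1024, 927, 1017 and 676 bp with 3MB-PP1, again without overlap (difference -0.52, SE 0.16, limma adjusted p = 0.171).

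BUB3 came nearest to the threshold. Its peaks were 1679, 1679, 1722 and 1538 bp long in DMSO (1655 ± 80.3, SD, n = 4) and 1331, 1361, 1312 and 1197 bp with 3MB-PP1 (1300 ± 71.7, SD, n = 4). No list of one treatment reached the other, and the difference was -0.35 (SE 0.0717) with a limma adjusted p of 0.077. At the stricter −log10 q the adjusted p was 0.027, and over the alternatives it ran from 0.027 to 0.417, the highest of them after centring on the list median. SPC24 and SPC25 passed (adjusted p = 0.0426 and 0.0435) when DMSO replicate 4, which had the shortest median of its group, was left out.

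The genes at the other end of the scale were MIS12, CENPH and NDC80. MIS12 peaks were 1571, 1547, 1619 and 1386 bp long in DMSO and 1835, 1752, 1407 and 1722 bp with 3MB-PP1, a difference of 0.13 (SE 0.10, limma adjusted p = 0.462). Its peak was thus no shorter while its rank was lower. NDC80 (chromosome 18, 2571557 to 2616635) had peaks of 1246, 1243, 1318 and 1264 bp and of 1547, 1228, 1281 and 1370 bp, a difference of 0.09 (SE 0.0856). CENPH peaks scattered from 285 to 1210 bp with 3MB-PP1 and from 445 to 857 bp in DMSO, so that no direction could be read.

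The median genes of the complexes show the ordinary range. HJURP, the chaperone that deposits CENP-A, had peaks of 1404, 1902, 1680 and 1120 bp in DMSO and 1141, 951, 1112 and 1073 bp with 3MB-PP1, which overlap in 1 pair of values (difference -0.49, SE 0.17, limma adjusted p = 0.186). SGO2, a shugoshin that protects centromeric cohesion, had 1108 to 1334 bp and 639 to 1254 bp. CENPN, which reads the CENP-A nucleosome, had 1271 to 1424 bp and 1226 to 1317 bp. DSN1 of the MIS12 complex had 1141 to 1318 bp and 1145 to 1262 bp, and KNL1 had 914 to 1170 bp and 858 to 937 bp. MAD2L1, which encodes the checkpoint inhibitor Mad2, had 1098 to 1208 bp and 1094 to 1257 bp, and its 8 leading peaks shared 1070 bp. AURKB, the passenger complex kinase, had 868 to 1154 bp and 885 to 1180 bp. CENPE, the kinetochore motor, had 842 to 1295 bp and 787 to 1415 bp. NUF2, the partner of NDC80, had 942 to 1193 bp and 796 to 1581 bp. For SGO2, CENPN, DSN1, MAD2L1, AURKB, CENPE and NUF2 the treatments overlapped, and KNL1 overlapped in 914 to 937 bp.

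By complex, 3MB-PP1 had the lower fitted length in 3 of 4 genes of CENP-A and its loading, 11 of 12 of the constitutive network, 3 of 4 of MIS12, 2 of 2 of KNL1, 2 of 4 of NDC80, 3 of 3 of SKA, 3 of 3 of the corona and motor genes, 4 of 6 of the checkpoint, 3 of 4 of the passenger complex and 2 of 2 of the shugoshins. The median difference ran from -0.38 (shugoshins) to -0.11 (corona and motor genes, and checkpoint genes). No complex had a gene past the threshold in length.

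A further 20 genes that act at kinetochores or in the checkpoint were followed for comparison, among them CENPI, KNTC1, CDC20, TRIP13, KIF2C and PLK1 itself. Of these, 18 had a gene-end peak in all 8 lists. KIF2C, the microtubule depolymerase MCAK, had one in 7, with none in 3MB-PP1 replicate 4. ITGB3BP, the gene of CENP-R, had one in 0 of 8, though peaks lay inside the gene, more than 1 kb from either end, in all 8 lists. In the 18 genes the median length difference was -0.18 and limma called 0 in length or rank at an adjusted p of at most 0.05 (at an unadjusted p under 0.05, 3 or 16.7% in length, against 20.3% of all genes, and 7 or 38.9% in rank, against 17.5%). The smallest adjusted p in limma's fits was 0.0601, in rank, for CENPI, a constitutive network gene, with a difference of 19.6 points. CENPI passed with the threshold of −log10 q of at least 5 (limma adjusted p = 0.0425) and with a window of 500 bp (0.0496). It did not pass with the replicate block (0.068) or with any one library left out (0.0792 to 0.165). By fold enrichment the difference was 7.08 points (adjusted p = 0.417). PLK1, the gene of the inhibited kinase, had leading peaks of 1543 to 2005 bp in DMSO and 1426 to 1910 bp with 3MB-PP1, and differed by -0.02 in length (SE 0.12, limma adjusted p = 0.915).

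Inside the genes, peaks were sparse. The body was taken as the gene without 1 kb at either end. Over the 44 bodies together 1.35%, 1.45%, 1.65% and 2.06% of the length was covered in the DMSO lists and 1.92%, 1.53%, 2.32% and 1.64% in the 3MB-PP1 lists. The groups overlapped, and over all protein-coding bodies the share was 2.76% to 3.70% in DMSO and 2.44% to 3.22% with 3MB-PP1, so that in every list the 44 genes were covered less than all genes together. A body peak was present in all 8 lists in 9 of 44 genes (20.5%, against 50.8% of all genes with a body) and in 0 of 8 in 6 (13.6%, against 11.8%). The number of body peaks was 67, 76, 85 and 112 in DMSO and 149, 102, 163 and 89 with 3MB-PP1, and replicates 1 and 3 of 3MB-PP1, whose lists were the longest of that group, held the most.

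Only 23 of the 44 genes had a body of at least 5 kb with peaks in at least 4 lists and could be tested. Limma's test of covered length called 0 of them (0.0850% of 12934 genes higher and 0.0155% lower), and at an unadjusted p under 0.05 it called 4 (17.4%, against 11.0%). Of these 23, 18 (78.3%) had a difference above 0, against 41.1% of all genes tested. The minimum of 4 lists used the same values, so these figures are a description of the genes that passed it. The median difference over the 23 was 0.75 on the scale of log2(bp + 100), beside -0.12 over all genes tested. With the lists reduced to equal length, 18 of the 44 genes could be tested. Their median was 0.0045, beside -0.30 over all genes tested in that setting.

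Most of the covered length lay in 3 long genes. MAD1L1 (chromosome 7, 1815795 to 2232945), which anchors Mad2 at kinetochores, had 6458, 9418, 8714 and 15651 bp covered in DMSO and 13841, 8707, 13605 and 9229 bp with 3MB-PP1, in a body of 415149 bp. MIS18A (chromosome 21, 32154682 to 32279049), which licenses CENP-A loading, had 8143, 10197, 12821 and 7509 bp covered and then 4767, 5852, 8120 and 6670 bp, a difference of -0.59 (SE 0.28, limma adjusted p = 0.472), with overlap. CENPP (chromosome 9, 92325468 to 92620529) had 3483, 4628, 2585 and 5737 bp covered and then 6784, 5313, 10010 and 5607 bp (difference 0.75, SE 0.33, limma adjusted p = 0.455), and its body contains ASPN, ECM2, IPPK, OGN and OMD. In that body 1 peak of each DMSO list and 2 to 4 peaks of each 3MB-PP1 list lay at the ends of those other genes. CENPT (chromosome 16, 67828157 to 67847693) had the densest body, 19.2% covered in DMSO and 14.8% with 3MB-PP1. The gene THAP11 lies within it, and 2 of the 3 body peaks of each list (3 of 6 in 3MB-PP1 replicate 1) were at ends of other genes.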

How the data were processed

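ATAC-seq peak lists of 8 libraries, 4 treated with DMSO and 4 with 3MB-PP1, were used, with groups and replicate numbers from the titles. The authors deposited one list per library, so peaks had been called per library. The submitters' processing notes name MACS2, DESeq2 and hg38, with no roles or versions. The aligner, read filters and any shift for Tn5 are not given in the sources used here, and could change peak number and length. From the values, each line of the deposited lists gives a position, a length (bp), a pileup, a fold enrichment and −log10 p and q values. The deposited pileup is a coverage signal with no stated scaling, so it was used as a rank within a list. The deposited −log10 p and q and the fold (a ratio) are the authors' own values for each peak, used only to filter or rank within a list. The largest q was 0.1. Read depth is unknown.

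Genes, starts and promoter sequences came from RefSeq tables (GRCh38.p14). All 44 symbols matched, 36 with a promoter. The other 8 were MIS18A, CENPH, CENPL, CENPM, KNL1, BUB3, TTK and BIRC5. Log2 leading peak length, pileup percentile and log2(covered body bp + 100) were fitted with limma 3.58.1 in R 4.3.3 on all genes of each table, treatment only, with Benjamini-Hochberg adjustment over 11982, 11982 and 12934 genes. Python 3.11.15, numpy 2.4.6, pandas 2.3.3 and matplotlib 3.10.9 were used for the rest. On simulated data with 200 genes shifted by 4 median SD, 94 were recovered for length, 145 for rank and 123 for body, and at 2 SD 15, 16 and 0. Interval functions were checked against bedtools, with 0 differences.

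For rank, libraries with the same replicate number deviated together (correlations of 0.378, 0.145, 0.262 and 0.379 for numbers 1 to 4). Odd-numbered libraries also correlated with each other across treatments (0.246 and 0.243), as did even-numbered ones (0.171 and 0.181). Pairs by single number therefore cannot be told from a split into odd and even numbers. The numbers were taken to pair the samples for rank in the fit with the replicate block, where 0 of 11982 genes passed. The main rank p-values come from the fit without the block. The pairing comes from these values and the numbers in the titles, and no label names a shared batch.

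The members, gene lists and naming rule were chosen with earlier results of these data known. Named were genes past a threshold, the 3 largest and 3 smallest length differences, the 3 highest and lowest mean percentiles, the 3 with the most covered body and the median gene of each complex by length. Other members named for non-overlapping groups or sequence were chosen after their values were seen. Alternatives were a −log10 q of at least 5, lists of equal length, windows of 500 bp and 2.5 kb, 50% overlap, the start-site end only, each library left out, the replicate block, other minimums, centring, covered bp in place of length, log2 pileup, rank by fold and a pseudocount of 10 bp.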

Additional observations from a re-analysis of the deposited data

Results flagged for a closer look

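In 104 groups of 4 lists (23 named genes by length and percentile, and 6 totals over the 44 genes), the highest or lowest value stood apart from the other 3 in 6 groups. Chance alone gives about 1 in 20. The AURKB peak was 885 bp long in 3MB-PP1 replicate 4, against 1134 to 1180 bp in the other 3 lists of that treatment. The MAD2L1 peak was 1257 bp long in 3MB-PP1 replicate 3, against 1094 to 1117 bp. The BUB3 percentile was 98.4 in 3MB-PP1 replicate 2, against 99.3 to 99.5, and the SKA2 percentile was 98.3 in DMSO replicate 1, against 99.2 to 99.3. The KNL1 percentile was 95.2 in DMSO replicate 4, against 98.1 to 98.2. The SPC24 percentile was 38.2 in DMSO replicate 3, against 35.7 to 35.9 in the other DMSO lists.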

How the results depend on the processing

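A gene-end peak was called in all 8 lists at 43 or 44 of the 44 genes, or 36 of the 36 with a start site, except at −log10 q of at least 5, where 27 remained. For length, the median difference over the 44 genes was -0.17, stayed between -0.22 and -0.14 with each library left out, and was 0.072 after centring on the median of all genes. The number of the 44 genes past the threshold was 0, but 1 at −log10 q of at least 5 and 0 to 2 with a library left out. Over all genes it was 158, and 21 with the replicate block, 46 after centring, 4 for covered bp of the windows and 72 to 339 with a library left out. For rank, 1 of the 44 genes (CENPA) passed, and 0 did with the replicate block, with genes in at least 6 of 8 lists, with log2 pileup, by fold enrichment and with each library left out (0 to 0). At −log10 q of at least 5 the count was 0 of 27 genes tested, which did not include CENPA. CENPA differed by -10.8 with the replicate block, -9.76 with at least 6 lists, -0.23 in log2 pileup and -14.4 by fold enrichment. Over all genes 38 passed in rank, and 165 at −log10 q of at least 5, 76 with a window of 500 bp, 0 with the replicate block, 3 with at least 6 lists, 4 with log2 pileup, 3 by fold enrichment and 1 to 62 with a library left out. For body length, the median over the 23 genes tested was 0.75, and 0.33 to 0.81 with a library left out (19 to 23 genes tested). It was 0.0045 over 18 genes with lists of equal length and -0.20 over only 3 genes at −log10 q of at least 5. Over all genes tested the median was -0.12 in the main fit, -0.30 with lists of equal length and -0.67 at −log10 q of at least 5. For the 23 genes the replicate numbers gave 0.78 (odd) and 0.081 (even). Over all genes 13 passed, and 120 at −log10 q of at least 5, 0 with the replicate block, 49 with a pseudocount of 10 bp and 0 to 38 with a library left out.

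Length differences changed sign for CENPH with a window of 2.5 kb (-0.022) and between -0.18 and 0.52 with a library left out, for CENPN (0.15), CENPP (0.039), KNL1 (0.066) and SKA2 (0.079) after centring, and for CENPP in covered bp (0.10). In rank, DSN1 changed sign in log2 pileup (-0.00068) and by fold enrichment (-2.09). The causes were not tested. Same-numbered libraries correlated at -0.00867 to 0.0904 for length and 0.0668 to 0.191 for body length. The numbers were not taken to pair them there, and the block moved the counts of calls as given. Body length did show the odd and even split across treatments. Odd with odd or even with even correlated at 0.0654 to 0.191, and odd with even at -0.204 to -0.0574. With the block, 7 of 23 genes had an unadjusted limma p under 0.05 for body length, against 4 without it. Over all 12934 genes the counts were 1806 and 1420. The replicate block changed no other call at an adjusted p of at most 0.05 among the 44 genes. For 26 named differences 443 tests under an alternative were made, and 417 of them kept the direction and side of the threshold. Only CENPA in rank was past the threshold in the main fits, and it fell short in 12 of its 17 tests. For the other differences, keeping the side means that they still did not pass. SPC24 differed in rank by 0.62 with a window of 2.5 kb, against 19.3 with 1 kb. The lists hold only peaks past a threshold and no read totals, so a missing call limits peaks, not signal.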
